A study of Homo sapiens with 18 samples.

Results

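MALT1, TNFAIP8 and 8 further regulators of the NF-kB pathway were followed across androgen and antiandrogen treatments of LNCaP cells, an established human prostate carcinoma line that grows in response to androgen. The 10 genes (MALT1, BCL10, TNFAIP8, TNFAIP3, NFKBIA, NFKB1, NFKB2, RELA, BIRC3 and TRAF2) were selected by gene symbol from 19178 named genes, and all of their 24 probe sets are accounted for here. They were chosen with earlier results of these data known, so their difference between DHT and vehicle is given as a description, with no p-value, and its count of calls is printed once, beside that of all genes. The groups were 100 nM dihydrotestosterone (DHT, the androgen), DHT with 1 µM enzalutamide, DHT with 10 µM enzalutamide, enzalutamide alone at 1 µM and at 10 µM, and the DMSO vehicle. Enzalutamide is an antiandrogen that competes for the androgen receptor. All groups were kept in 5% serum stripped of hormones and were harvested after 16 h. Each of the 6 groups had 3 arrays of 1 cell line, 18 arrays in all.

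NF-kB is a family of transcription factor dimers that inhibitor proteins hold in the cytoplasm until a receptor signal frees them. The adaptor BCL10 and the protease and scaffold MALT1 join a CARD-domain protein in a complex that recruits ubiquitin ligases and activates the kinase that marks the inhibitor for destruction. TRAF2 and BIRC3 are ubiquitin machinery at TNF receptors, NFKBIA encodes the classical inhibitor, TNFAIP3 a ubiquitin-editing enzyme that ends the signal, and NFKB1, NFKB2 and RELA the DNA-binding subunits. TNFAIP8 was named for its induction by TNF and is known as a protein that opposes cell death. Several of these genes, among them NFKBIA, TNFAIP3, BIRC3, NFKB1 and NFKB2, are themselves textbook targets of NF-kB, while prostate luminal cells are best known for the androgen receptor programme.

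Values are deposited log2 signals, and a difference is the log2 difference between group means ± its standard error (SE) with 3 arrays per group. A gene was represented by its brightest probe set and was tested if the mean of that set over all arrays reached the median of all probe sets, 6.98. By this limit 12756 genes were tested, among them 9 of the 10 members. The exception was TRAF2, whose probe set averaged 5.30. A gene was called where its adjusted p from limma, corrected by Benjamini-Hochberg over all genes tested, was under 0.05. Pairs of arrays of 1 group had r of 0.933 to 0.985. The DHT label was borne out by FKBP5, an androgen-induced co-chaperone, at 13.79 with DHT and 9.47 with vehicle, by TMPRSS2 at 13.10 and 8.48, and by KLK3, which encodes prostate-specific antigen, at 14.19 and 10.15. All 9 prostate luminal markers were above the limit, with means between 9.56 and 14.62. Of the leukocyte markers 2 of 5 were above it (CD3E at 7.35 and LCP1 at 9.54), and PTPRC and CD14 averaged 4.45 and 2.48. Their summed linear signal was 1362 with DHT and 795 with vehicle, and LCP1 stood at 10.01 and 9.11, whose part in the results was not tested. Fibroblast markers passed in 1 of 5 cases, basal epithelial in 2 of 3 and endothelial in 2 of 3. On replicate 2 of DHT and replicate 2 of 1 µM enzalutamide the ACTB signal at the 3′ end was 4.50 and 6.04 times that at the 5′ end, against 1.42 to 1.80 on the other arrays.

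The promoter letters of the members separate genes with and without a match to the NF-kB consensus, a 10-letter element, so MALT1 is shown beside 3 members that hold one. The windows are the 250 bases before the annotated start in RefSeq (build GRCh38.p14), 5′ to 3′ on the gene's strand, with consensus matches on either strand in capitals. MALT1 lies at chr18:58671215-58671464 on the plus strand, NFKBIA at chr14:35404750-35404999 on the minus strand, the first of 2 NFKB1 starts at chr4:102501109-102501358 on the plus strand, and BIRC3 at chr11:102317234-102317483 on the plus strand.
MALT1: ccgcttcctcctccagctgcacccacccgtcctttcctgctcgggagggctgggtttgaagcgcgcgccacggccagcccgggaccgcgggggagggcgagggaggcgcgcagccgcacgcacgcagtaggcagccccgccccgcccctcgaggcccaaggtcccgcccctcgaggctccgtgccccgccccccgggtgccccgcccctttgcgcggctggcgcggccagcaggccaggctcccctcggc
NFKBIA: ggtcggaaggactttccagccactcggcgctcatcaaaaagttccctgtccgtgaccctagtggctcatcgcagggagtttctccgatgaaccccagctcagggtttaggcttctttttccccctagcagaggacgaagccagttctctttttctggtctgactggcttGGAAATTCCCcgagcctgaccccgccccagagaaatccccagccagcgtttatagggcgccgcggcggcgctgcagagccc
NFKB1: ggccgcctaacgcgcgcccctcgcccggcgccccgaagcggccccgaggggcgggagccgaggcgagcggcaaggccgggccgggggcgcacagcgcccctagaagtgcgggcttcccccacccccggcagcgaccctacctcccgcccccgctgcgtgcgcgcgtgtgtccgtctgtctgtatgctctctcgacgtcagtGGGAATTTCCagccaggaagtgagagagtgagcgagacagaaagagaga
BIRC3: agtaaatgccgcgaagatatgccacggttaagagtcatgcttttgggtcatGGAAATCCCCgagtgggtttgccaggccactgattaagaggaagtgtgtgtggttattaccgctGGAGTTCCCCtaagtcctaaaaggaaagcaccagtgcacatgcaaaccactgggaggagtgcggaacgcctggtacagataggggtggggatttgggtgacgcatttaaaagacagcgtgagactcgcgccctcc
The 10 members had 16 such windows, and 6 of these, from TNFAIP3, NFKBIA, NFKB1, NFKB2 and BIRC3, held a consensus match. Of the 35116 promoter windows of that length, 9.96% held one. MALT1, BCL10, TRAF2, RELA in both of its windows and TNFAIP8 in all of its 3 windows held none. The androgen receptor half-site TGTTCT, searched on both strands, was in 0 of the 16 member windows and in 12.4% of all windows. A match or its absence describes these letters only.

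TNFAIP8 and MALT1 differed most from vehicle among the 9 tested members when the cells received DHT, and both came down stepwise when enzalutamide was added to DHT. TNFAIP8 read 12.38, 12.49 and 12.46 with DHT, 11.46, 10.92 and 10.93 with DHT and 1 µM enzalutamide, and 10.31, 10.08 and 10.20 with DHT and 10 µM. Without DHT it read 9.76, 9.98 and 9.85 with vehicle, 10.42, 10.62 and 10.12 with 1 µM enzalutamide, and 10.02, 10.36 and 10.01 with 10 µM. The 3 DHT arrays and the 3 arrays of DHT with 1 µM stood above all others without touching each other, and the remaining groups lay within less than 1 unit.

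MALT1 stepped down in the same order when the drug was added to DHT. Its signal was 10.66, 10.56 and 10.67 with DHT, 9.89, 9.73 and 9.79 with DHT and 1 µM enzalutamide, and 9.26, 9.19 and 9.22 with DHT and 10 µM. The arrays without DHT read 8.90, 8.97 and 8.90 with vehicle, 9.24, 9.30 and 9.12 with 1 µM, and 9.02, 9.12 and 9.09 with 10 µM. Again DHT and DHT with 1 µM did not overlap any other group, whereas DHT with 10 µM overlapped 1 µM enzalutamide alone.

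**Figure D1:**
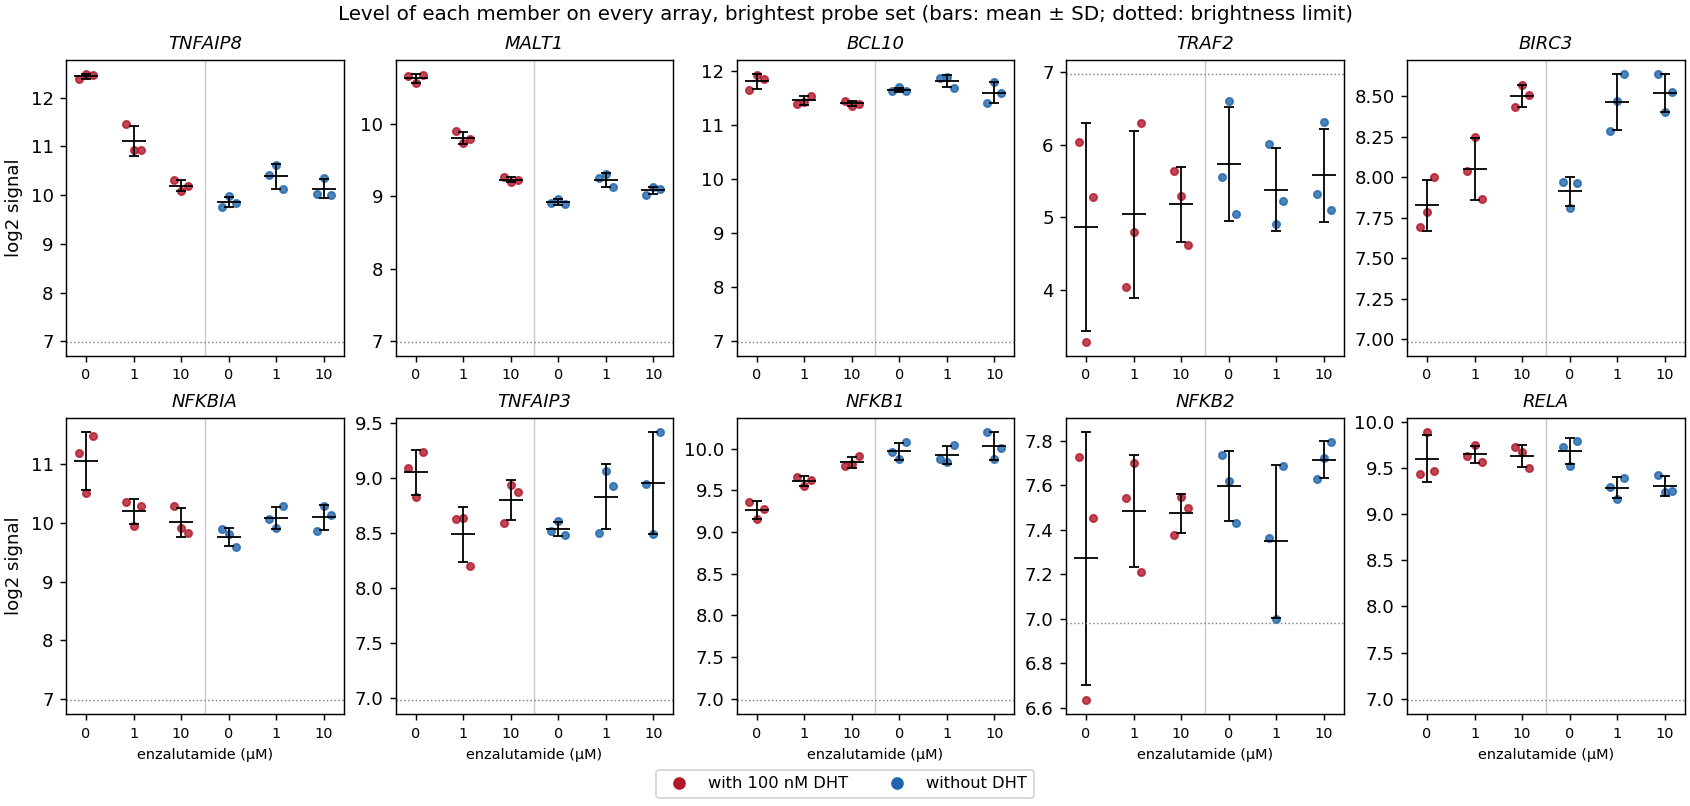
Deposited log2 signal of the brightest probe set of each member on the 18 arrays, against enzalutamide dose in µM, with 100 nM DHT (red, left) and without DHT (blue, right). Points are arrays, bars are mean ± SD of 3 arrays, the dotted line is the limit of 6.98, and each panel has its own axis. TNFAIP8 and MALT1 step down with dose in the red arrays, NFKB1 and BIRC3 step up, and TRAF2 lies below the limit throughout.

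Ordered by mean, MALT1 stood at 10.63 ± 0.06 (SD, n = 3 as for all means here) with DHT, 9.81 ± 0.08 with DHT and 1 µM, 9.23 ± 0.04 with DHT and 10 µM, 9.22 ± 0.09 with 1 µM alone, 9.08 ± 0.05 with 10 µM alone and 8.92 ± 0.04 with vehicle. DHT with 10 µM and 1 µM alone overlapped, as did 1 µM and 10 µM alone. TNFAIP8 averaged 12.44 ± 0.06 with DHT, 11.10 ± 0.31 with DHT and 1 µM, 10.39 ± 0.25 with 1 µM alone, 10.20 ± 0.11 with DHT and 10 µM, 10.13 ± 0.20 with 10 µM alone and 9.86 ± 0.11 with vehicle. Here the neighbours 1 µM alone, DHT with 10 µM and 10 µM alone overlapped. The signals come from bulk RNA, so more cells of a kind and more RNA per cell cannot be told apart.

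Over vehicle, DHT stood 2.58 ± 0.14 higher for TNFAIP8 (5.96-fold) and 1.71 ± 0.09 higher for MALT1 (3.27-fold). NFKBIA stood 1.29 ± 0.20 higher (2.44-fold) and NFKB1 differed by -0.70 ± 0.11. By the threshold used throughout, 3 of 9 members were called higher and 1 lower in this contrast, where 7.8% of all tested genes were called higher and 8.32% lower. Because the members were chosen with earlier results of these data known, most likely this contrast, nothing is read from that count. Which values were known is not recorded, so the other comparisons may not be free of that choice either. Between these members and the rest lay TNFAIP3 at 0.52 ± 0.20, BCL10 at 0.16 ± 0.10, RELA at -0.08 ± 0.13, BIRC3 at -0.09 ± 0.15 and NFKB2 at -0.32 ± 0.25, which were not called. Without DHT replicate 2, the array with the ACTB ratio of 4.50, NFKB2 differed by -0.01 and RELA by -0.23.

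Adding enzalutamide to DHT lowered 3 of the 4 genes that stood apart with DHT, and raised the fourth at the higher dose. With 1 µM added, 3 of 9 members fell and 0 rose, where 2.27% of all tested genes fell and 1.22% rose. TNFAIP8 fell by 1.34 ± 0.14 (adjusted p = 1.15e-05), MALT1 by 0.82 ± 0.09 (adjusted p = 1.61e-05) and NFKBIA by 0.86 ± 0.20 (adjusted p = 0.0158). These comparisons share the DHT arrays with the contrast that was most likely known when the members were chosen, so they are no independent support for it. BCL10 narrowly missed the threshold, at -0.35 ± 0.10 (adjusted p = 0.0542), as did NFKB1 at 0.35 ± 0.11 (adjusted p = 0.0804). The member median was -0.35 and the median of all tested genes was 0.02.

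With 10 µM added to DHT, 4 of 9 members fell and 2 rose, where 4.48% of all tested genes fell and 3.94% rose. TNFAIP8 fell by 2.24 ± 0.14 (4.74-fold, adjusted p = 1.1e-08) and MALT1 by 1.40 ± 0.09 (2.64-fold, adjusted p = 1.39e-08). NFKBIA fell by 1.05 ± 0.20 (adjusted p = 0.00171) and BCL10, the partner of MALT1, by 0.41 ± 0.10 (adjusted p = 0.012). BIRC3 rose by 0.67 ± 0.15 (adjusted p = 0.00588) and NFKB1 by 0.57 ± 0.11 (adjusted p = 0.00144). The BCL10 call was lost without DHT replicate 2 (-0.35, adjusted p = 0.0559) or without replicate 2 of DHT with 10 µM (-0.39, adjusted p = 0.057). It was also lost with the mean of the probe sets (-0.22, adjusted p = 0.25) and with arrays centred on their median (-0.48, adjusted p = 0.0846). TNFAIP3, NFKB2 and RELA were not called, at -0.25 ± 0.20, 0.20 ± 0.25 and 0.03 ± 0.13. Without DHT replicate 2, NFKB2 was at -0.12 with 10 µM added, and at -0.11 with 1 µM added, against 0.21 with that array.

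The 2 group means in the step between both doses beside DHT hold no DHT or vehicle array, while the spread behind each p is pooled over all 18 arrays. Only 9 of 12756 genes were called there, 8 lower (0.0627%) and 1 higher (0.00784%), and MALT1 and TNFAIP8 were among the 8. MALT1 fell by 0.58 ± 0.09 and TNFAIP8 by 0.91 ± 0.14 with 10 µM relative to 1 µM, both at an adjusted p of 0.0187, and in each gene all arrays of DHT with 10 µM lay below all arrays of DHT with 1 µM. Without DHT replicate 2, which enters through the spread, that adjusted p was 0.0267 for both. The other genes called lower were FKBP5, CREB3L4, ABCC4, PLPP1, PMEPA1 and CENPN, and GNG7 was higher, named here after their values were seen. FKBP5 fell by 1.49 ± 0.16 and ABCC4, a transporter of the androgen programme, by 0.70 ± 0.12.

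This step rests on few arrays, and whether its groups were in view when the members were chosen is not recorded. Without replicate 1 of DHT with 1 µM, MALT1 differed by -0.54 and TNFAIP8 by -0.73 (adjusted p = 0.171 for both), and neither was called. Without replicate 2 of DHT with 10 µM they differed by -0.56 and -0.85 (adjusted p = 0.151), and without its replicate 3 by -0.58 and -0.91 (adjusted p = 0.14). Without replicate 3 of DHT with 1 µM MALT1 was not called at -0.59 (adjusted p = 0.0883). The other 7 tested members were not called in the step. BIRC3 was 0.45 ± 0.15 higher (adjusted p = 0.371), with no overlap between the groups.

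The effect of DHT beside enzalutamide, DHT with the drug over the same dose alone, likewise compares means that hold no DHT or vehicle array, with the same pooled spread. Beside 1 µM, TNFAIP8 rose by 0.72 ± 0.14 (1.65-fold, adjusted p = 0.00225) and MALT1 by 0.58 ± 0.09 (adjusted p = 0.000278), each with every DHT array above every array without it. BCL10 fell by 0.36 ± 0.10 (adjusted p = 0.0171) and NFKB1 by 0.31 ± 0.11 (adjusted p = 0.0458). In all, 2 of 9 members rose and 2 fell, where 11% of all tested genes rose and 7.86% fell. NFKBIA, at 0.11 ± 0.20 (adjusted p = 0.728), was not called.

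Of these 4 calls those of BCL10 and NFKB1 were the less firm. BCL10 was not called without 1 µM replicate 1 (-0.33, adjusted p = 0.0595) or 2 (-0.32, adjusted p = 0.0634), nor without replicate 1 (-0.33, adjusted p = 0.0668) or 2 (-0.34, adjusted p = 0.0585) of DHT with 1 µM. With each array centred on its median, a setting that moves the median of all genes here to 0.16, BCL10 was at -0.19 (adjusted p = 0.425) and NFKB1 at -0.14 (adjusted p = 0.434). With the mean of the probe sets BCL10 was at -0.13 (adjusted p = 0.43) and NFKB1 at -0.30 (adjusted p = 0.105). NFKB1 lost its call when any 1 array of vehicle, of 1 µM alone or of DHT with either dose was left out, and also without DHT replicate 3 or 10 µM replicate 3. Its difference then lay between -0.25 and -0.35, with adjusted p between 0.0513 and 0.136. The count of called members was 2 without 1 µM replicate 2 or without replicate 1 of DHT with 1 µM.

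Beside 10 µM enzalutamide, limma called 0 of 9 members for DHT, where 1.36% of all tested genes rose and 1.46% fell. An unadjusted p under 0.05 was found for 1 of the 9, against 2089 of all 12756 tested genes. MALT1 differed by 0.15 ± 0.09 (adjusted p = 0.477) and TNFAIP8 by 0.07 ± 0.14 (adjusted p = 0.895). In the brightest MALT1 set every array of DHT with 10 µM lay above every array of 10 µM alone. The 3 probe sets of MALT1 gave 0.15 to 0.28, and in 208309_s_at and 210018_x_at the groups overlapped. The TNFAIP8 groups overlapped. NFKBIA was at -0.09 ± 0.20, NFKB1 at -0.19 ± 0.11 and BCL10 at -0.20 ± 0.10. The DHT effect on MALT1 was thus 1.71, 0.58 and 0.15 beside 0, 1 and 10 µM, and that on TNFAIP8 was 2.58, 0.72 and 0.07. Whether the effects differ between doses was not tested with an interaction term.

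**Figure D2:**
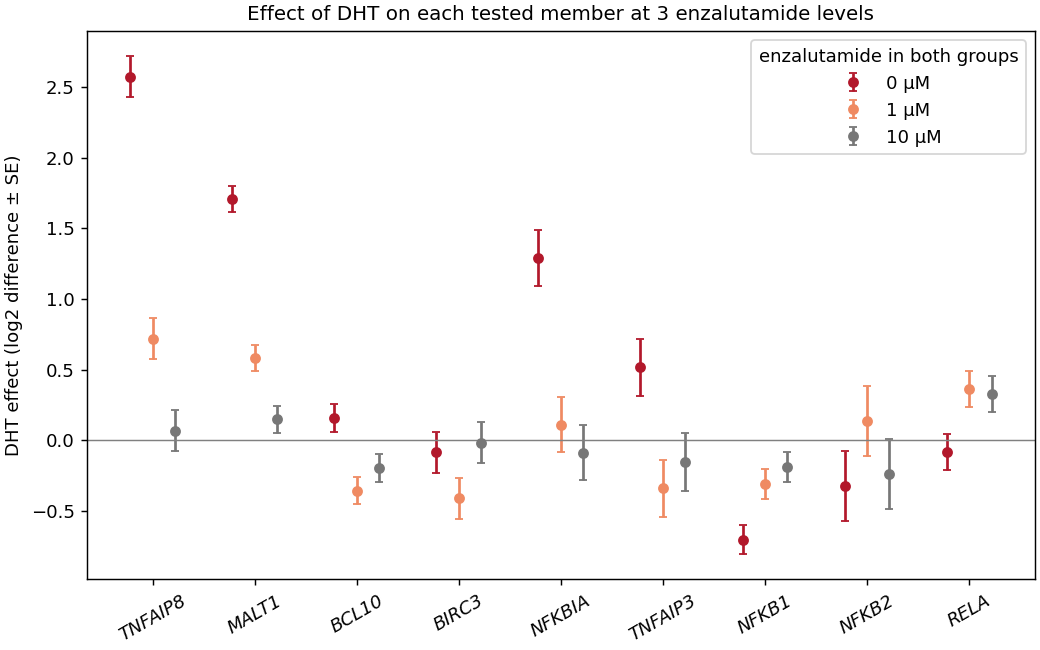
Effect of DHT, the log2 difference ± SE between DHT and no DHT at the same enzalutamide level, for the 9 tested members at 0, 1 and 10 µM (3 arrays per group). TNFAIP8, MALT1 and NFKBIA have their highest value at 0 µM (2.58, 1.71 and 1.29), and at 10 µM the effects of all 9 lie between -0.24 and 0.33.

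Enzalutamide alone was compared with vehicle for the 9 tested members at both doses. Both comparisons share the vehicle arrays with DHT over vehicle, so their counts of called members are not free of the choice of members. With 1 µM over vehicle 2 of 9 were called, both higher, where 2.24% of all tested genes were called higher and 4.59% lower. BIRC3 rose by 0.55 ± 0.15 (adjusted p = 0.0326) and TNFAIP8 by 0.52 ± 0.14 (adjusted p = 0.0376). Below the threshold came MALT1 at 0.30 ± 0.09 (adjusted p = 0.0571) and RELA at -0.40 ± 0.13 (adjusted p = 0.0638), both with no overlap between the groups. These calls turned on single arrays, since 0 members were called without any 1 of the vehicle replicates 1, 2 and 3 or without 1 µM replicate 2, the array with the ACTB ratio of 6.04. Without that array TNFAIP8 stood 0.40 higher (adjusted p = 0.174) and BIRC3 0.55 higher (adjusted p = 0.0953). Without vehicle replicate 1, 2 or 3 TNFAIP8 stood 0.47, 0.58 or 0.51 higher (adjusted p = 0.143, 0.0705 and 0.0973) and BIRC3 0.58, 0.50 or 0.57 higher (adjusted p = 0.0871, 0.107 and 0.0682). Leaving out 1 µM replicate 1 ended the TNFAIP8 call (0.51, adjusted p = 0.0804), and leaving out its replicate 3 ended the BIRC3 call (0.46, adjusted p = 0.0632). Without DHT replicate 2, which enters only through the shared spread, 4 members were called, with MALT1 (adjusted p = 0.0492) and RELA (adjusted p = 0.0299) added.

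With 10 µM enzalutamide over vehicle limma called 0 of 9 members, where 0.306% of all tested genes were called higher and 0.51% lower. An unadjusted p under 0.05 was found for 2 of the 9, against 1947 of all 12756 tested genes. BIRC3 was 0.61 ± 0.15 higher (adjusted p = 0.0604) and was called when the arrays were quantile-normalized (0.63, adjusted p = 0.0303). Its 3 arrays with 10 µM alone read 8.64, 8.40 and 8.52, all above the vehicle arrays at 7.97, 7.81 and 7.96.

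NFKBIA, whose product the pathway both degrades and resynthesises, read 11.19, 10.50 and 11.47 with DHT, 10.35, 9.94 and 10.29 with DHT and 1 µM, and 10.28, 9.91 and 9.83 with DHT and 10 µM. The arrays without DHT read 9.89, 9.80 and 9.60 with vehicle, 10.06, 9.90 and 10.28 with 1 µM, and 9.86, 10.28 and 10.13 with 10 µM. DHT stood above all other groups with the widest spread, 11.05 ± 0.50, its lowest array being replicate 2 with the ACTB ratio of 4.50. Without that array the difference over vehicle was 1.56, the fall with 1 µM was -1.13 (adjusted p = 0.00051) and that with 10 µM was -1.32 (adjusted p = 4.77e-05). The fall with 1 µM was not called without DHT replicate 1 (-0.79, adjusted p = 0.0701), without DHT replicate 3 (-0.65, adjusted p = 0.0831) or without replicate 2 of DHT with 1 µM (-0.73, adjusted p = 0.0988). Its promoter, printed above, holds a consensus match 81 to 72 bases before the start.

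NFKB1 ran the other way. It read 9.36, 9.16 and 9.28 with DHT, 9.66, 9.55 and 9.63 with DHT and 1 µM, and 9.79, 9.81 and 9.91 with DHT and 10 µM. The vehicle arrays read 9.95, 9.88 and 10.08, those of 1 µM alone 9.88, 9.84 and 10.05, and those of 10 µM alone 10.20, 9.87 and 10.01. The 3 DHT groups formed separate levels that rose with the dose, and the 3 groups without DHT overlapped. The match in its first promoter window lies 49 to 40 bases before the start.

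BIRC3, an inhibitor-of-apoptosis ubiquitin ligase, read 7.70, 7.79 and 8.002 with DHT, 8.04, 8.25 and 7.87 with DHT and 1 µM, and 8.43, 8.57 and 8.51 with DHT and 10 µM. With 1 µM alone it read 8.29, 8.47 and 8.64. DHT, DHT with 1 µM and vehicle overlapped, and the 3 other groups lay above them. Its second probe set, 210538_s_at, gave another picture of DHT: 6.75, 6.55 and 6.95 with DHT and 7.81, 7.70 and 7.95 with vehicle, a difference of -1.07 ± 0.17, against -0.09 ± 0.15 for the brighter set. With each probe set tested on its own and p adjusted over all probe sets, it rose by 0.74 ± 0.17 (adjusted p = 0.0235) with 1 µM and by 0.98 ± 0.17 (adjusted p = 0.0014) with 10 µM added to DHT. With 1 µM alone over vehicle it was at -0.04 ± 0.17, where the brighter set was called higher. Both sets thus had DHT with 10 µM above DHT, and they disagreed on DHT and on the drug alone.

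BCL10 lay between 11.35 and 11.94 on all 18 arrays. Its arrays read 11.66, 11.94 and 11.85 with DHT, 11.40, 11.43 and 11.55 with DHT and 1 µM, and 11.46, 11.35 and 11.40 with DHT and 10 µM, so that DHT stood apart from both combinations. With vehicle it read 11.63, 11.70 and 11.64, with 1 µM alone 11.87, 11.89 and 11.69, and with 10 µM alone 11.41, 11.80 and 11.60. Both of its weaker probe sets were not called in any tested comparison, at -0.27 ± 0.18 and 0.01 ± 0.21 for 10 µM added to DHT.

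TNFAIP3 read 9.09, 8.83 and 9.24 with DHT and 8.52, 8.61 and 8.48 with vehicle, with no overlap. It read 8.63, 8.64 and 8.20 with DHT and 1 µM, 8.59, 8.93 and 8.87 with DHT and 10 µM, 8.50, 9.06 and 8.92 with 1 µM alone and 8.94, 8.49 and 9.42 with 10 µM alone. The arrays of 10 µM alone lay between 8.49 and 9.42, where all 18 arrays lay between 8.20 and 9.42, and none of its 7 tested comparisons was called. Its largest tested difference was -0.56 ± 0.20 with 1 µM added to DHT (adjusted p = 0.16).

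RELA averaged 9.60 ± 0.26 with DHT, 9.65 ± 0.09 with DHT and 1 µM, 9.64 ± 0.12 with DHT and 10 µM, 9.68 ± 0.14 with vehicle, 9.28 ± 0.11 with 1 µM alone and 9.31 ± 0.10 with 10 µM alone. Only the groups of the drug alone stood lower, and no comparison was called. NFKB2 averaged 7.27 ± 0.57 with DHT, 7.48 ± 0.25 with DHT and 1 µM, 7.48 ± 0.09 with DHT and 10 µM, 7.60 ± 0.16 with vehicle, 7.35 ± 0.34 with 1 µM alone and 7.71 ± 0.08 with 10 µM alone, close to the limit and not called. TRAF2 was below the limit in every group, with means between 4.87 and 5.74, and was not tested.

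Of the 24 probe sets 19 were above the limit, and the 5 below it belonged to NFKB2 (2 sets), NFKBIA, RELA and TRAF2. The 3 probe sets of MALT1 gave 1.45 to 1.79 for DHT over vehicle, -0.82 to -0.65 with 1 µM and -1.40 to -1.24 with 10 µM added to DHT. Beside 1 µM enzalutamide they gave DHT effects of 0.49 to 0.99, and all 3 were called with each set tested on its own. For the dose step they gave -0.65 to -0.51, of which only that of the brightest set was called.

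TNFAIP8 had 3 sets above the limit, and they did not agree. 210260_s_at and 208296_x_at gave 2.58 ± 0.14 and 2.80 ± 0.14 for DHT over vehicle, while 1566709_at gave -0.31 ± 0.25. With 10 µM added to DHT they gave -2.24 ± 0.14, -2.48 ± 0.14 and 0.03 ± 0.25. The third set read 6.63, 7.12 and 7.16 with DHT and 7.30, 7.23 and 7.31 with vehicle, near the limit. For the dose step beside DHT, with each probe set tested on its own, 208296_x_at was called (-0.92 ± 0.14, adjusted p = 0.0446) and 210260_s_at was not (-0.91, adjusted p = 0.0664). A name ending in x_at marks a set in which some probes also match other sequences. The sets of NFKB1 gave -0.70 and -0.82 with DHT, and those of TNFAIP3 gave 0.52 and 0.47. The weaker RELA set, 209878_s_at, gave -0.68 ± 0.44 with DHT and spread from 6.54 to 8.15 among the DHT arrays.

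**Figure D3:**
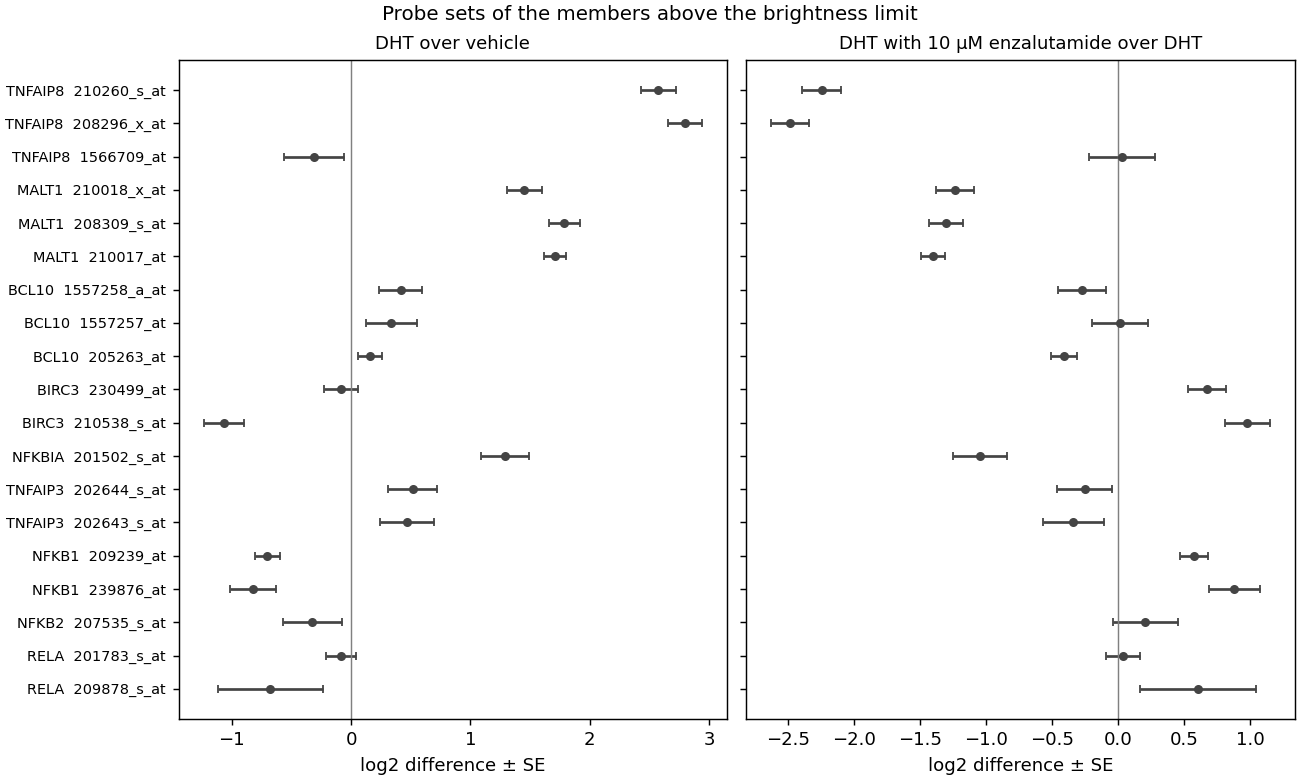
Log2 difference ± SE of the 19 member probe sets above the limit, for DHT over vehicle (left) and for DHT with 10 µM enzalutamide over DHT (right), 3 arrays per group. In TNFAIP8 the set 1566709_at lies near 0 in both panels (-0.31 and 0.03) while its other 2 sets lie at 2.58 and 2.80 on the left and at -2.24 and -2.48 on the right, and the 2 BIRC3 sets differ on the left (-0.09 and -1.07).

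Of the 24 member probe sets 10, from 6 genes, were marked in the authors' deposited table as passing over all 6 groups (41.7%), against 6.80% of all probe sets. The marked sets were all 3 sets of MALT1, 2 sets of TNFAIP8, both of BIRC3 and 1 each of BCL10, NFKB1 and NFKBIA. For the pair of DHT and DHT with 10 µM, all of these sets but that of NFKBIA were marked. The NFKBIA set was also not marked for DHT and DHT with 1 µM. None of these sets was marked for the step between both doses beside DHT, or for vehicle and 1 µM alone. No set of TNFAIP3, NFKB2, RELA or TRAF2 was marked in that table. The marks over all 6 groups rest on DHT and vehicle arrays too, so nothing is read from the share of member sets. The 6.80% also covers probe sets below the limit.

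As a description over the 18 arrays, which share 6 group means, the gene whose signal was most like that of MALT1 was TNFAIP8 (Pearson r = 0.990). Next came ACSL3, a ligase that activates fatty acids (0.987), the zinc transporter SLC39A10 (0.986), FKBP5 (0.986) and SOCS2, a suppressor of cytokine signalling (0.980). For TNFAIP8 the most alike were SOCS2 (0.990), MALT1 (0.990), TPD52 (0.983), SMS, which makes spermine (0.980), and the chaperone DNAJB9 (0.979). Of the other members NFKBIA had r = 0.849 with MALT1, at rank 233 of the tested genes, and NFKB1 had r = -0.939. BIRC3 had r = -0.55, NFKB2 -0.36, BCL10 0.27, TNFAIP3 0.26 and RELA 0.19. The 18 arrays include those of DHT and vehicle, so the likeness of MALT1 and TNFAIP8 is not free of the choice of members.

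**Figure D4:**
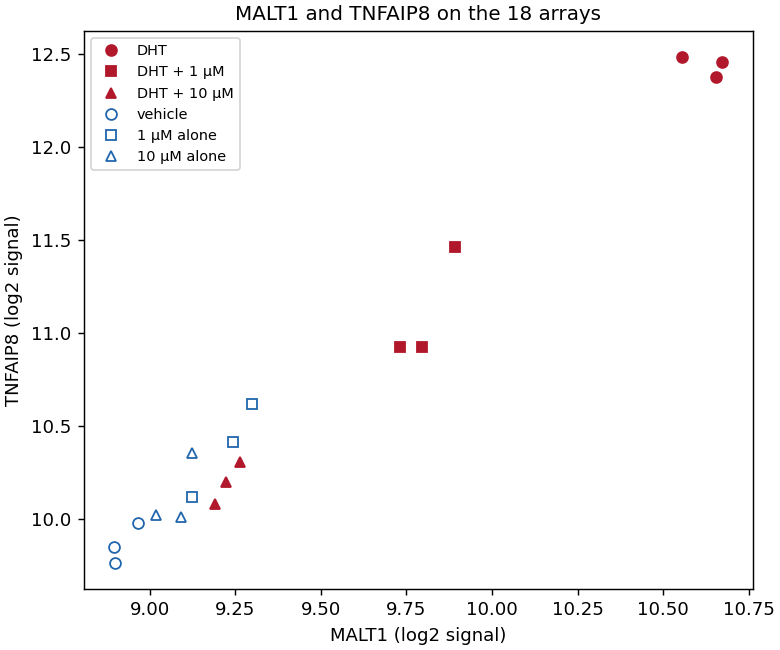
TNFAIP8 against MALT1, deposited log2 signal of the brightest probe set, one point per array (18 arrays; filled symbols with DHT, open symbols without DHT, shape for the enzalutamide dose). The DHT arrays lie alone at 10.56 to 10.67 for MALT1 and 12.38 to 12.49 for TNFAIP8, those of DHT with 1 µM lie between, and those of DHT with 10 µM lie among the arrays of the drug alone.

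Other genes of the pathway showed no common direction beside enzalutamide. Of 82 listed genes in 6 lists, which hold RELB and BCL3 in 2 lists each, 59 were tested. For DHT beside 1 µM 6 rose and 4 fell, with a median of 0.04 against -0.01 for all tested genes, and the background of 11% higher and 7.86% lower applies here too. Beside 10 µM 1 rose and 0 fell, with a median of 0.01 against 0.02 for all tested genes. There 10 of the 59 had an unadjusted p under 0.05, against 2089 of all 12756 tested genes.

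Among 14 tested receptors and adaptors 3 rose and 1 fell with DHT beside 1 µM. TRAF3, an adaptor that restrains the non-canonical branch, rose by 0.82 ± 0.15 (adjusted p = 0.00089). The lymphotoxin receptor LTBR rose by 0.56 ± 0.13 (adjusted p = 0.00654; beside 10 µM it was called without both high-ACTB arrays, at 0.42 with adjusted p = 0.0406) and the TNF receptor TNFRSF1A by 0.45 ± 0.10 (adjusted p = 0.00607), and the TWEAK receptor TNFRSF12A fell by 0.54 ± 0.18 (adjusted p = 0.0395). TRAF3 averaged 10.85 with DHT and 1 µM, 10.40 with DHT, 10.03 with 1 µM alone and 10.78 with vehicle, and it was also lower with 1 µM alone than with vehicle (-0.75 ± 0.15, adjusted p = 0.00937). The level with 1 µM alone was the lowest of these 4. In the same order LTBR averaged 9.92, 9.90, 9.36 and 9.73, and TNFRSF1A averaged 10.08, 9.95, 9.63 and 9.96. TNFRSF12A averaged 8.47, 8.56, 9.01 and 9.29.

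CARD14, a scaffold that can assemble with BCL10 and MALT1, was the 1 gene called of 6 tested CARD scaffolds and MALT1 substrates, with a rise of 0.90 ± 0.21 (adjusted p = 0.00575). It averaged 8.59 with DHT and 1 µM, 8.53 with DHT, 7.69 with 1 µM alone and 8.55 with vehicle, and was called lower with 1 µM alone than with vehicle (-0.86 ± 0.21, adjusted p = 0.0209). With both high-ACTB arrays left out it rose by 0.67 (adjusted p = 0.0341), and its fall with 1 µM alone was not called (-0.63, adjusted p = 0.0928). Of 19 kinases and ubiquitin proteins TAB3, an adaptor of the kinase MAP3K7, rose beside both doses, by 0.43 ± 0.10 (adjusted p = 0.00631) beside 1 µM and 0.44 ± 0.10 (adjusted p = 0.0223) beside 10 µM. TAB3 averaged 10.85 and 10.86 with DHT and 1 or 10 µM, and 10.42 with either dose alone. With DHT it averaged 10.81 and with vehicle 10.69.

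Of 10 tested NF-kB target genes 1 rose and 3 fell with DHT beside 1 µM. BCL2L1, which opposes cell death, rose by 0.65 ± 0.20 (adjusted p = 0.0287), and the cytokine gene IL1B (-0.71 ± 0.22, adjusted p = 0.0276), the manganese superoxide dismutase SOD2 (-0.68 ± 0.18, adjusted p = 0.0141) and the transcription factor IRF1 (-0.55 ± 0.17, adjusted p = 0.033) fell. IL1B averaged 8.335 with DHT and 1 µM, 8.34 with DHT, 9.05 with 1 µM alone and 8.36 with vehicle. In the same order SOD2 averaged 8.22, 8.68, 8.90 and 8.45. BCL2L1 averaged 9.31, 9.44, 8.66 and 9.11, and IRF1 7.90, 8.01, 8.46 and 8.54. Of these genes only IRF1 was called for DHT over vehicle. With both high-ACTB arrays left out BCL2L1 (0.60, adjusted p = 0.0636), SOD2 (-0.40, adjusted p = 0.0785) and IRF1 (-0.58, adjusted p = 0.0529) were not called, whereas IL1B was (-0.84, adjusted p = 0.0256). The number of called targets was 0 without replicate 3 of DHT with 1 µM, 1 without 1 µM replicate 1 or 2, and 2 without 1 µM replicate 3 or replicate 2 of DHT with 1 µM. None of the 5 tested NF-kB subunits and inhibitors and none of the 5 tested genes of the TNFAIP8 family and other TNF-induced genes was called by limma beside either dose. Of the first list 0 and 1 genes had an unadjusted p under 0.05 beside 1 and 10 µM, and of the second 0 and 0. Of all 12756 tested genes 4267 and 2089 had one.

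With 10 µM added to DHT 1 of 59 rose and 2 fell, against 3.94% and 4.48% of all tested genes, named after their values were seen: NFKBIZ, an atypical inhibitor protein (0.41 ± 0.11, adjusted p = 0.0193), IL1R1 (-0.41 ± 0.11, adjusted p = 0.0234) and CARD10 (-0.53 ± 0.16, adjusted p = 0.0472). With 1 µM added to DHT limma called 0, where 1.22% of all tested genes rose and 2.27% fell. Here 7 of 59 had an unadjusted p under 0.05, against 2034 of all 12756 tested genes. In the step between both doses limma called 0, where 0.00784% rose and 0.0627% fell. For that step 5 of 59 had an unadjusted p under 0.05, against 1024 of all 12756. With 1 µM alone over vehicle 1 rose and 3 fell, against 2.24% and 4.59% of all tested genes. With 10 µM alone limma called 0, where 0.306% rose and 0.51% fell. Here 13 of 59 had an unadjusted p under 0.05, against 1947 of all 12756 tested genes. With DHT over vehicle 3 were called higher and 4 lower, against 7.8% and 8.32% of all tested genes, and of these IRF1 was not called without both high-ACTB arrays (-0.45, adjusted p = 0.139).

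**Figure D5:**
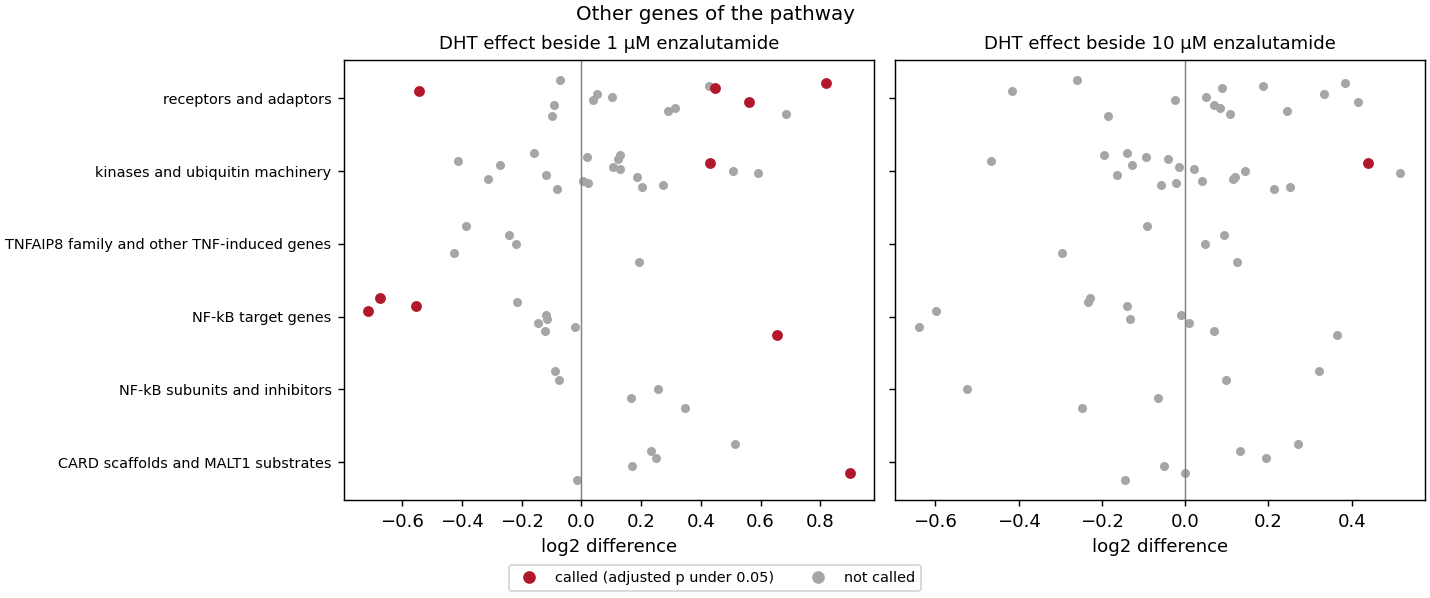
Log2 difference of each tested pathway gene (points, by list) for the effect of DHT beside 1 µM (left, DHT with 1 µM over 1 µM alone) and beside 10 µM enzalutamide (right), with called genes in red. On the left 6 genes are called higher and 4 lower, and on the right TAB3 alone is called, at 0.44.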

How the data were processed

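Biotin-labelled cRNA from total RNA was measured on oligonucleotide arrays with 1 colour, per the labels. MAS5 is named, with no version, in the submitters' processing notes, and the sources used here do not give the array type or other steps. The deposited values are log2 signals, per the file headers and the values, and their linear trimmed mean was 500.0 to 500.1 on each array, so a common scaling preceded deposit. Array medians ran from 6.87 to 7.18. A second deposited table held identical array values, beside the authors' log2 ratios between groups, p-values and marks, per the file headers, which were used only where named. No sample column was left unused (0). Of 54675 probe sets 62 controls were left out. Symbols were updated from RefSeq (GRCh38.p14) for 38264 probe sets by accession, 1239 by current symbol and 1080 by synonym, 2987 kept the deposited symbol, and 573 with several symbols and 10470 with none were not used.

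limma 3.58.1 in R 4.3.3 fitted 6 group means to all 18 arrays (12 residual degrees of freedom, eBayes with intensity trend, two-sided) with no further normalization, on the brightest probe set of each gene above the limit. The same fit was also run on simulated data made from the means and spreads of these genes. Tables were made with Python 3.11.15, pandas 2.3.3 and numpy 2.4.6, figures with matplotlib 3.10.9. The members and gene lists were chosen with earlier results of these data known. The text names all members, the listed pathway genes called for DHT beside either dose (at most 5 a list), and the 5 genes most like MALT1 and TNFAIP8. No label says that the 3 replicates of a group were separate cultures, so p-values measure the spread between these arrays, which may be technical. The number of arrays limits the precision. The alternatives were a replicate block, brightness limits, centring, quantile normalization, other probe set rules, no trend, and leaving out arrays.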

Additional observations from a re-analysis of the deposited data

How the results depend on the processing

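Over 27 alternatives, and leaving aside DHT over vehicle, which is a description here, 0 of the 17 called member changes reversed, with 397 of 459 values called as before and 62 not, and 30 of 1235 uncalled values became called. Called changes of MALT1, TNFAIP8, NFKBIA, NFKB1 and BIRC3 with 10 µM added to DHT, and of MALT1 and TNFAIP8 with 1 µM added to DHT and for DHT beside 1 µM, were kept in each. The cause of the changes below was not tested. For 1 µM enzalutamide over vehicle the count of called members was 0 with no brightness limit, with arrays centred on their median or without the 2 arrays of high ACTB ratio, and 1 with the mean of the probe sets or each set tested alone. For 10 µM over vehicle it was 1 with quantile normalization, no intensity trend or without these 2 arrays. For DHT with 10 µM over DHT with 1 µM it was 0 with the mean of the probe sets and 1 with each set alone or no trend. Leaving out single arrays gave 0 to 4 for 1 µM and 0 for 10 µM over vehicle, 2 to 4 and 5 to 6 for 1 and 10 µM added to DHT, 2 to 5 and 0 for DHT beside 1 and 10 µM, and 0 to 2 for the dose step. Among pathway genes called for DHT beside either dose, receptors numbered 7 when centred, CARD scaffolds 2 when centred and 0 with the mean of the probe sets, and NF-kB subunits 1 without the high-ACTB arrays. Kinases numbered 2 with the replicate block, the higher limit, no trend or without these arrays, 3 when centred or quantile-normalized and 5 with the mean of the probe sets. Targets numbered 2 when centred or with the mean of the probe sets and 1 without these arrays. Single arrays left out gave 3 to 5 receptors, 1 to 3 CARD scaffolds, 1 to 3 kinases, 0 to 1 subunits, 0 to 4 targets and 0 of the TNFAIP8 family.

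Centring moved the median of all genes to 0.16 (main -0.01) for DHT beside 1 µM and to -0.12 (main 0.01) for the dose step. It changed the number of genes called, and the percentage of them called higher, to 1416 and 64.6 from 2056 and 48.4 for DHT over vehicle, 333 and 12.9 from 872 and 32.8 for 1 µM over vehicle, 4 and 100 from 104 and 37.5 for 10 µM over vehicle, 238 and 46.2 from 446 and 35 for 1 µM added to DHT, 574 and 31.2 from 1074 and 46.8 for 10 µM added to DHT, and 2601 and 88.9 from 2410 and 58.4 for DHT beside 1 µM. Beside 10 µM 123 genes were called when centred and 359 otherwise. Quantile normalization called 5 genes in the dose step, against 9.

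Deviations from the group means gave 45 correlations between same-numbered arrays of different groups, from -0.18 to 0.59 (median 0.02, 11 over 0.1). Differently numbered arrays gave 90, from -0.52 to 0.39 (median -0.01, 18 over 0.1). Of 18 arrays 6 were most like their own number, so the replicate number was not taken as a pairing. With the replicate block 4 members were called for 1 µM added to DHT, against 3, since BCL10 was added (adjusted p = 0.0469), and the counts of called members in the other comparisons were as without it.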
